A study of Mus musculus with 3 samples.

Results

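The genes described here encode the phase II conjugation enzymes of mouse liver, the glutathione S-transferases (Gst), the UDP-glucuronosyltransferases (Ugt) and the sulfotransferases (Sult). They were chosen by gene symbol alone, as all genes of the alpha, kappa, mu, pi, theta, omega and zeta Gst classes, the Ugt1, Ugt2 and Ugt3 families and the numbered Sult families. Of the 23361 genes in the tables, 59 had such a symbol (21 Gst, 20 Ugt and 18 Sult). Levels are in FPKM, fragments scaled to the length of the transcript and to the number of mapped fragments. Genes whose highest FPKM over the 3 samples reached 1 were kept, which left 47 of them, 19 Gst, 16 Ugt and 12 Sult, among 10792 genes in all. Liver mRNA was sequenced from C57BL/6J mice labelled male and 8 to 10 weeks old, which were fasted and operated on under chloral hydrate anesthesia. The Sham mice had a laparotomy with no vessel closed and gave their livers after 90 min. In the warm ischemia (WI) mice, flow to the left and median lobes was stopped for 90 min, and in the ischemia followed by reperfusion (IR) mice 90 min of ischemia was followed by 2 h of flow. Each condition has 1 library, so no difference below has a replicate check, no test was made, and the deposited 95% bounds of each FPKM hold the error of the counting model and not the spread between mice. Whether a library holds the RNA of 1 mouse or of several, and which lobe was sampled, are not given in the sources used here. No sham library matches the IR library in time after surgery, so reperfusion cannot be told apart from the longer time.

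Phase II enzymes join a polar group to a drug, a hormone, a bile acid or a reactive product of lipid peroxidation, so that transporters can carry it out of the cell. Gst enzymes use glutathione, Ugt enzymes use UDP-glucuronic acid and Sult enzymes use the sulfate donor PAPS (phosphoadenosine phosphosulfate). The liver is rich in all of these enzymes, most of them made in hepatocytes, and many of their genes are known to be switched by the receptors CAR (Nr1i3) and PXR (Nr1i2), by the aryl hydrocarbon receptor (AHR), by NRF2 (Nfe2l2), or by the sex-specific pattern of growth hormone.

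The libraries did not all match their label. The Y-linked genes Ddx3y, Eif2s3y, Kdm5d and Uty summed to an FPKM of 0 in Sham, 0.00849 in WI and 23.7 in IR, and Xist, the RNA of the inactive X chromosome, was at 18.9, 20.1 and 1.29. By these genes the Sham and WI libraries have the pattern of female mice, although all are labelled male. The IR library has mainly that of male mice, with some Xist left. A list of 13 genes known to be higher in male mouse liver includes 3 phase II genes, Gstp1, Gstp2 and Ugt2b38. Among its 10 other genes, Cyp2d9 was at 38.3, 38.5 and 739 in Sham, WI and IR, and Slco1a1 at 14.5, 9.17 and 37.9. Of 12 genes known to be higher in female liver, 3 were at least 2-fold lower in IR than in WI (1.43% of all genes were) and 3 others at least 2-fold lower in WI than in Sham (1.1% of all genes). The list median for IR against WI was -0.53. Some of these genes kept similar levels in WI and IR, with Cyp2c69 at 265 and 248 and Cyp3a41a at 143 and 126. Whether the IR library holds RNA of both sexes was not tested. In each comparison with IR, the reperfusion and the difference in Xist and Y-linked pattern between the libraries cannot be told apart. The comparison of WI with Sham is between libraries with the same Xist and Y-linked pattern. The FPKM of all genes summed to 475754 in Sham, 487912 in WI and 712423 in IR. The tables give no fragment counts, so the depth behind each value cannot be had from them. In such bulk samples, fewer cells of a type and less RNA per cell cannot be told apart.

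Several of the genes are near copies, which limits how their reads could be assigned. Gsta1 (chr9:78230669-78242683, mm10) is 97.5% identical to Gsta2 (chr9:78331020-78347145) over the coding sequence. Between these genes lies Gm3776 (chr9:78257129-78269166), outside the choice by symbol, whose coding sequence matches that of Gsta1 at 670 of 672 positions (99.7%). The first 90 coding bases are shown for these genes and for Gsta4, a more distant gene of the alpha class, because the largest difference between WI and Sham falls on them. Capitals mark bases that differ from Gsta1.
Gsta1: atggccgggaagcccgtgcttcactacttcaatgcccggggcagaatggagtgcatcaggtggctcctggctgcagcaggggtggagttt
Gm3776: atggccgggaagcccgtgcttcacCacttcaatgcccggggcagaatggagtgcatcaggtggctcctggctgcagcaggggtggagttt
Gsta2: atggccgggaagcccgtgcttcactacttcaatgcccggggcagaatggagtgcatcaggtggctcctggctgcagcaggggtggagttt
Gsta4: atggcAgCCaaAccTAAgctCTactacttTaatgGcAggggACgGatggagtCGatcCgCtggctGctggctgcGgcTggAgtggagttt
Over this stretch Gsta2 equals Gsta1, Gm3776 differs at 1 base and Gsta4 at 23.

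Gstp1 (chr19:4035411-4037912) and Gstp2 (chr19:4040288-4042221), the pi class, lie side by side and match at 621 of 633 coding positions (98.1%). Their coding starts are shown because both genes carry the largest Gst difference between IR and WI, and capitals mark the 6 bases of Gstp2 that differ from Gstp1.
Gstp1: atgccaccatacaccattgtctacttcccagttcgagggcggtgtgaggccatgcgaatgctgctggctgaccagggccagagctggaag
Gstp2: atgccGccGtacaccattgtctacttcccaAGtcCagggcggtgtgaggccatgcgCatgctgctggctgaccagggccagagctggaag
The 120 bases before the RefSeq start of each gene (GRCm38.p6, minus strand, chr19:4037913-4038032 for Gstp1 and chr19:4042222-4042341 for Gstp2) show what their promoters share. Capitals mark the letters TGAGTCA, known as the binding site of AP-1.
Gstp1 promoter: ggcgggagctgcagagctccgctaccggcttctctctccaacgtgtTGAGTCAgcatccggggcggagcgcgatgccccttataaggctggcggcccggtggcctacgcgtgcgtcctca
Gstp2 promoter: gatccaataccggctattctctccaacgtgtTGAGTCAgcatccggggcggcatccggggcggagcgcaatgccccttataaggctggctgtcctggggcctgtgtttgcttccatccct
The match begins 74 bases before the start in Gstp1 and 89 before it in Gstp2. On either strand of the window from 250 bases before to 50 after the start, TGAGTCA stood in 5 of the 40 members with a RefSeq window (12.5%; Gstm5, Gstp1, Gstp2, Sult1b1 and Ugt2b37), against 5.95% of 27025 genes. The core of the antioxidant response element bound by NRF2, TGACNNNGC, stood in 3 of the 40 (7.5%; Gsta3, Gstm5 and Gstm7), against 14.0% of genes. The AHR core GCGTG stood in 8 (20.0%), Gsta1, Gsta2 and Gstp1 among them, against 35.2%. On the opposite strand TGAGTCA reads TGACTCA, so that 1 stretch can hold it together with TGACNNNGC. These are matches of letters in 1 window per start and say nothing of binding.

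Other near copies touch the values below. Ugt1a1, Ugt1a5, Ugt1a6a, Ugt1a6b, Ugt1a9 and Ugt1a10 are transcripts of 1 locus (chr1:88055411-88220002) and have identical last 740 coding bases, in a coding length of 1587 to 1608. All 6 have a lower bound of 0 in every sample, so their single values, which enter the Ugt counts and medians below, are uncertain, and their sum is given as well. In Ugt2, Ugt2b38 is 95.1% identical to Ugt2b5 and 94.1% to Ugt2b37, and in Sult2, Sult2a1 is 94.9% identical to Sult2a5. The coding sequence used for Sult2a2 has only 585 bases against 858 in Sult2a1. The 2 match at 573 positions with 12 substitutions, the rest of the alignment being gaps. Sult2a7 had no coding sequence to compare. Over whole alignments, 10 members past the filter have a partner with at least 95% coding identity. This count leaves out Sult2a1 and Sult2a2. Every member had the status OK in all 3 samples.

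Glutathione transferases had the highest levels of the families (FPKM, per length, so that genes can be compared). Gsta3, the main alpha-class enzyme of mouse liver and known for detoxifying aflatoxin, stood at 765 in Sham, 1063 in WI and 835 in IR. Gstm1, the leading mu-class enzyme, was at 605, 722 and 754. Gstz1, which as maleylacetoacetate isomerase serves tyrosine breakdown, was at 377, 429 and 417. These 3 led the family in Sham, and their bounds overlapped among samples, those of Gsta3 running from 236 to 1294 in Sham and from 215 to 1912 in WI. Among the glucuronosyltransferases, Ugt2b5 led with 319, 360.0 and 408, followed in Sham by Ugt2b36 with 257, 300.4 and 314. Ugt1a1, which conjugates bilirubin, was listed at 228, 245 and 146, each with a lower bound of 0. Among the sulfotransferases, Sult1a1, which acts on phenols, was level at 309.7, 318 and 340.5. Sult2a2 and Sult2a1, which sulfate bile acids and hydroxysteroids, followed in Sham at 292 and 196. Of the 47 genes, 44 were at 1 or more in all samples, the others being Sult1e1, Sult2a3 and Ugt1a10. Just inside the filter was Ugt1a10 with a highest FPKM of 1.12, and just under it were Ugt1a7c with 0.627 and Ugt1a2 with 0.562. Of the 12 genes under the filter, 2 (Sult1c1 and Sult2a6) were listed at 0 in all samples.

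**Figure D1:**
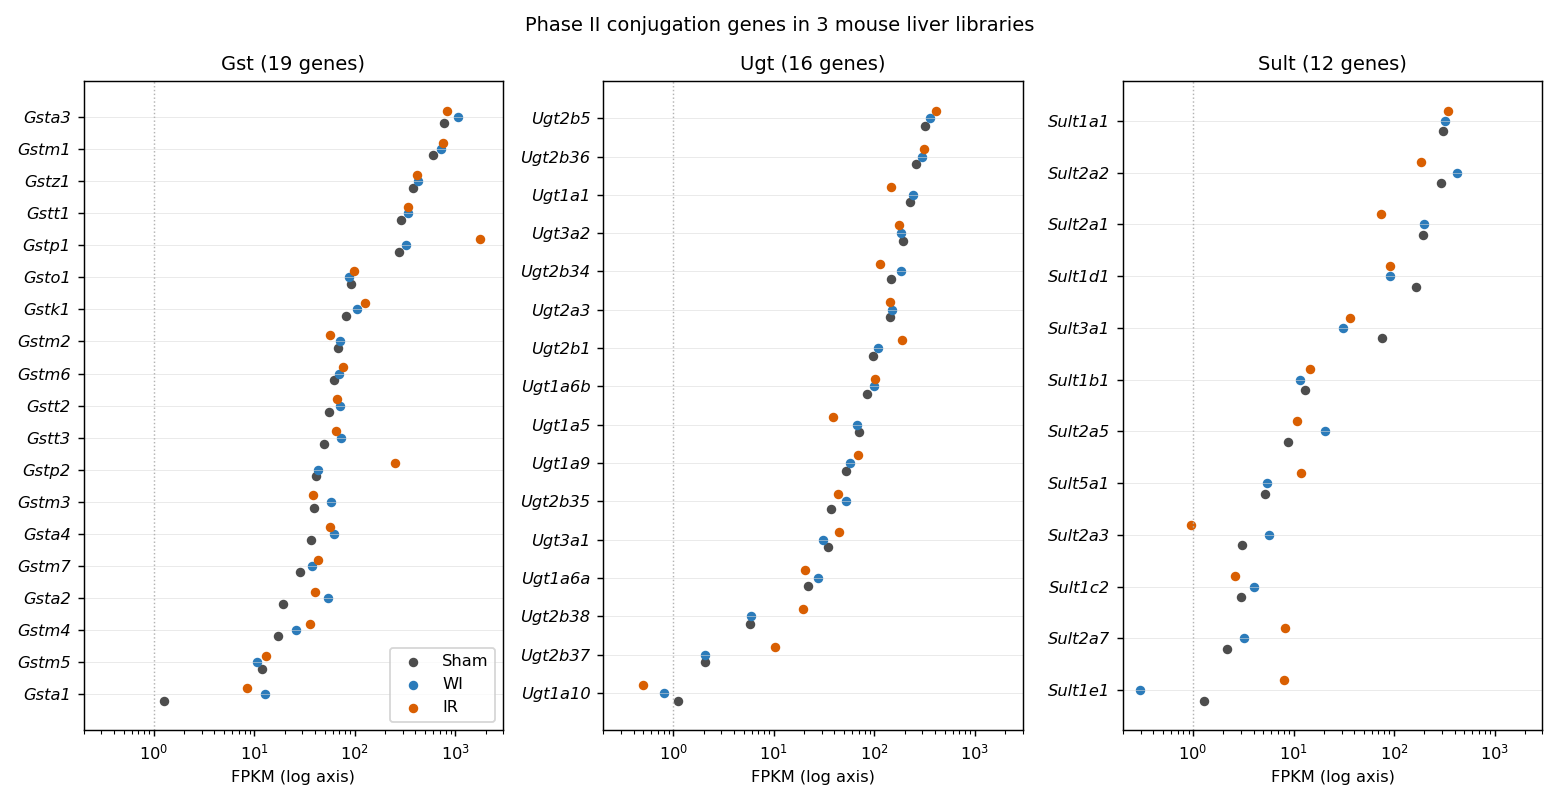
FPKM (log axis) of the 47 phase II genes past the filter in the Sham, WI and IR libraries, 1 point per library, ordered within Gst, Ugt and Sult by level; the dotted line is an FPKM of 1. Most genes have their 3 points close together, while Gsta1 stands low in Sham and Gstp1, Gstp2, Ugt2b37, Ugt2b38 and Sult1e1 stand high in IR.

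A gene was called where FPKM + 1 differed at least 2-fold between libraries. Between WI and Sham, 3 of the 47 genes were higher in WI (6.38%), Gsta1, Gsta2 and Sult2a5, against 0.751% of all 10792 genes. Lower in WI was 1 gene, Sult3a1 (2.13%), against 1.1% of all genes. Deposited bounds were apart for 1 member, against 0.676% of all genes. Most members differed little, but 36 of 47 were on the higher side in WI, with a median difference of 0.18 on the log2(FPKM + 1) scale against 0.02 over all genes. The medians of the families were 0.34 for Gst, 0.11 for Ugt and 0.05 for Sult.

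Between IR and WI, 7 members were higher in IR (14.9%), Gstp1, Gstp2, Ugt2b37, Ugt2b38, Sult1e1, Sult2a7 and Sult5a1, against 5.78% of all genes. Lower in IR were 3 members (6.38%), Sult2a1, Sult2a2 and Sult2a3, against 1.43%. Bounds were apart for 6 members, 5 higher and 1 lower, against 3.61% of all genes. Without the 3 members on the male-biased list, 4 were higher. The female-biased list holds no member, so no such check was made for the lower members. Scaling each library to a common sum (TPM) shifted the median of all genes by -0.48 for IR against WI and gave 5 members higher and 10 lower, and taken relative to that median it gave 7 and 3 as before. The medians were 0.01 for Gst, -0.01 for Ugt and 0.05 for Sult, against 0.03 over all genes, and relative to the median of all genes after that scaling they were -0.08, -0.10 and -0.04. Between IR and Sham, which share their libraries with the comparisons above, 9 members were higher (19.1%; background 5.35%) and 3 lower (6.38%; background 2.15%), with the bounds of 6 apart (background 3.82%). With the common sum the split was 7 higher and 7 lower, and 8 and 3 relative to the median of all genes. In the values as deposited, those higher were the 7 genes named for IR against WI together with Gsta1 and Gstm4, and those lower were Sult2a1, Sult2a3 and Sult3a1. In all, 15 members were called in at least 1 comparison and 32 in none. Several of the 15 are near copies that can share reads, so these counts are not of independent genes.

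**Figure D2:**
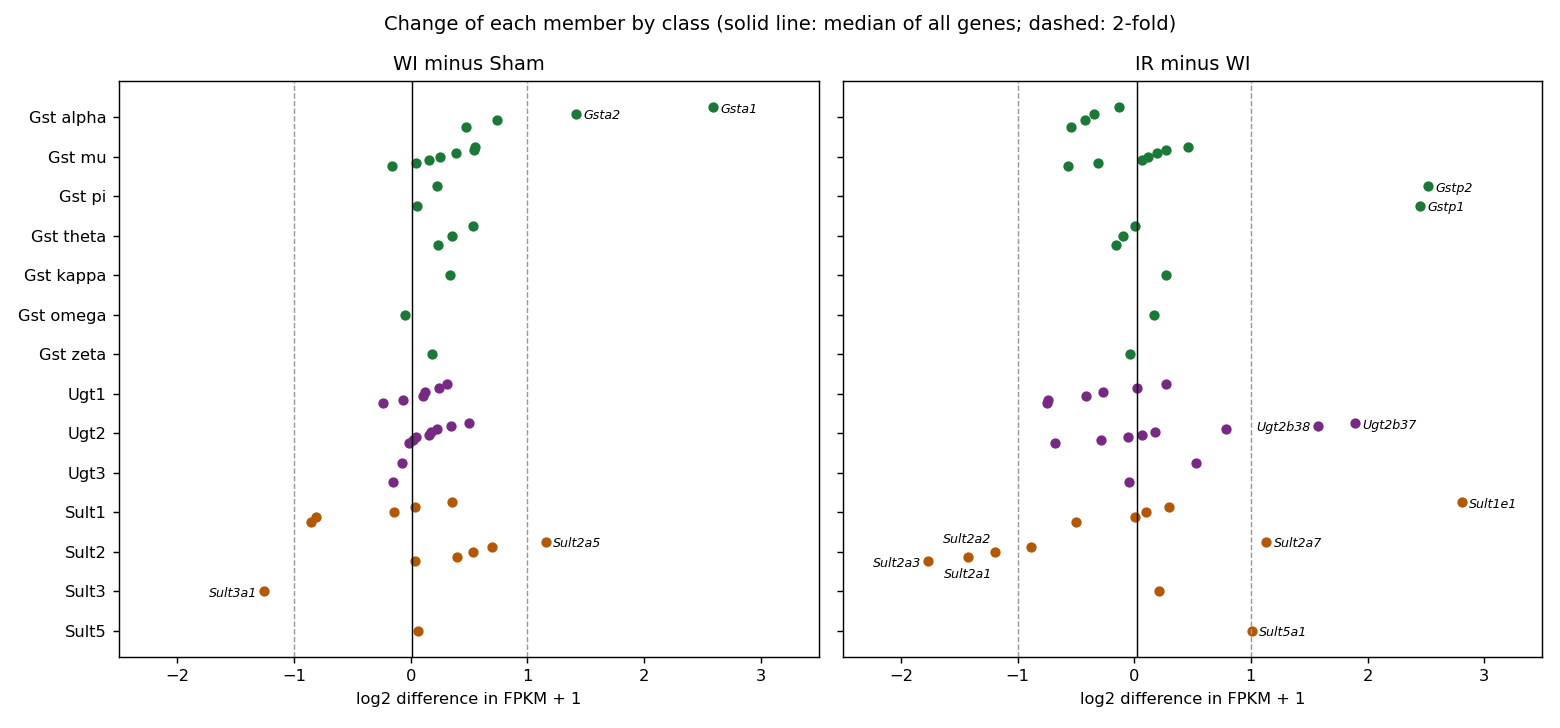
Difference of each of the 47 genes between libraries, as log2 of FPKM + 1 (x axis), by enzyme class (y axis), for WI minus Sham (left) and IR minus WI (right); each point is 1 gene, dashed lines mark 2-fold and the solid line the median of all genes. The alpha class lies to the right in WI, and both pi-class genes lie at 2.45 and 2.52 in IR minus WI.

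The alpha class of Gst, which removes lipid hydroperoxides and reactive aldehydes, was the class with the largest median in WI against Sham, 1.08 over its 4 genes. Gsta1 had an FPKM of 1.25 in Sham (bounds 0.318 to 2.19), 12.6 in WI (6.07 to 19.2) and 8.36 in IR (3.73 to 13.0). It was low in Sham only, with bounds apart from those of both other samples and overlapping between WI and IR. Its difference was 2.60 ± 0.46 for WI against Sham (log2 of FPKM + 1, with the standard error that the bounds give), 2.06 ± 0.47 for IR against Sham and -0.54 ± 0.50 for IR against WI. Because its level in Sham is near the pseudocount of 1, these values understate the ratio, and with a pseudocount of 0.1 the difference was 3.23 for WI against Sham and 2.65 for IR against Sham. Gsta2 was at 19.5, 53.6 and 39.8 in Sham, WI and IR, with a difference of 1.42 ± 0.47 for WI against Sham and 0.99 for IR against Sham, just under 2-fold. The lower bound of Gsta2 in WI, 28.8, lay just under its upper bound in Sham, 28.9. Gsta4, known for conjugating the lipid aldehyde hydroxynonenal, was at 36.8, 62.2 and 56.7 (0.74 for WI against Sham). With Gsta3 at 0.47, all 4 alpha genes were on the higher side in WI, and all 4 were on the lower side in IR against WI, with a median of -0.39.

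The order of samples was the same in the neighbour Gm3776, which was at 0.580 in Sham, 6.90 in WI and 4.27 in IR. Its difference of 2.32 for WI against Sham also had bounds apart. Gm10639 (chr9:78289928-78305525), 98.5% identical to Gsta2, was at 0.599, 1.5 and 0.892. Because reads of such copies may have been divided among them, Gsta1, Gsta2 and Gm3776 were also summed. The sum was 21.3, 73.2 and 52.4, a difference of 1.73 for WI against Sham and 1.26 for IR against Sham, so the summed level was also over 2-fold higher in both.

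The pi class was level between Sham and WI and high in IR. Gstp1 was at 273 in Sham (138 to 409), 320.4 in WI (158 to 483) and 1753 in IR (598 to 2908). Gstp2 was at 41.2 (21.9 to 60.5), 42.8 (22.8 to 62.9) and 251 (127 to 374). In both genes the IR bounds were apart from those of Sham and WI. The differences for IR against WI were 2.45 ± 0.60 in Gstp1 and 2.52 ± 0.48 in Gstp2, and for IR against Sham 2.68 and 2.58. For WI against Sham they were 0.23 and 0.06. Both genes are known to be higher in male than in female mouse liver, so their levels in IR cannot be told apart from the sex-linked pattern of that library. The pair made up 10.8% of the summed Gst level in Sham, 9.95% in WI and 39.5% in IR.

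The other Gst classes held no gene called between WI and Sham or between IR and WI. In the mu class of 7 genes, the medians were 0.25 for WI against Sham and 0.12 for IR against WI. Gstm4 was at 17.2 (8.47 to 26.0), 25.7 (12.2 to 39.2) and 35.6 (18.1 to 53.2), higher by steps of 0.55 and 0.46 (the second -0.07 with the common sum), and passed 2-fold only for IR against Sham (1.01 ± 0.49, and 0.46 with the common sum) with bounds that overlap. The 3 theta genes were on the higher side in WI with a median of 0.36, and Gstt1 was at 288, 339 and 341. Gstk1, the mitochondrial and peroxisomal kappa enzyme, was at 82.5, 105 and 127. Gsto1, of the omega class, which also reduces dehydroascorbate, was at 91.3, 88.2 and 99.2. The Gst family summed to 2914, 3653 and 5075, and without the pi class to 2599, 3289 and 3072, so the sum without the pi class was lower in IR than in WI. As a share of the FPKM of all genes, whose sum was highest in IR, the Gst family made up 0.613%, 0.749% and 0.712%, so that its share was lower in IR than in WI although its sum was higher.

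**Figure D3:**
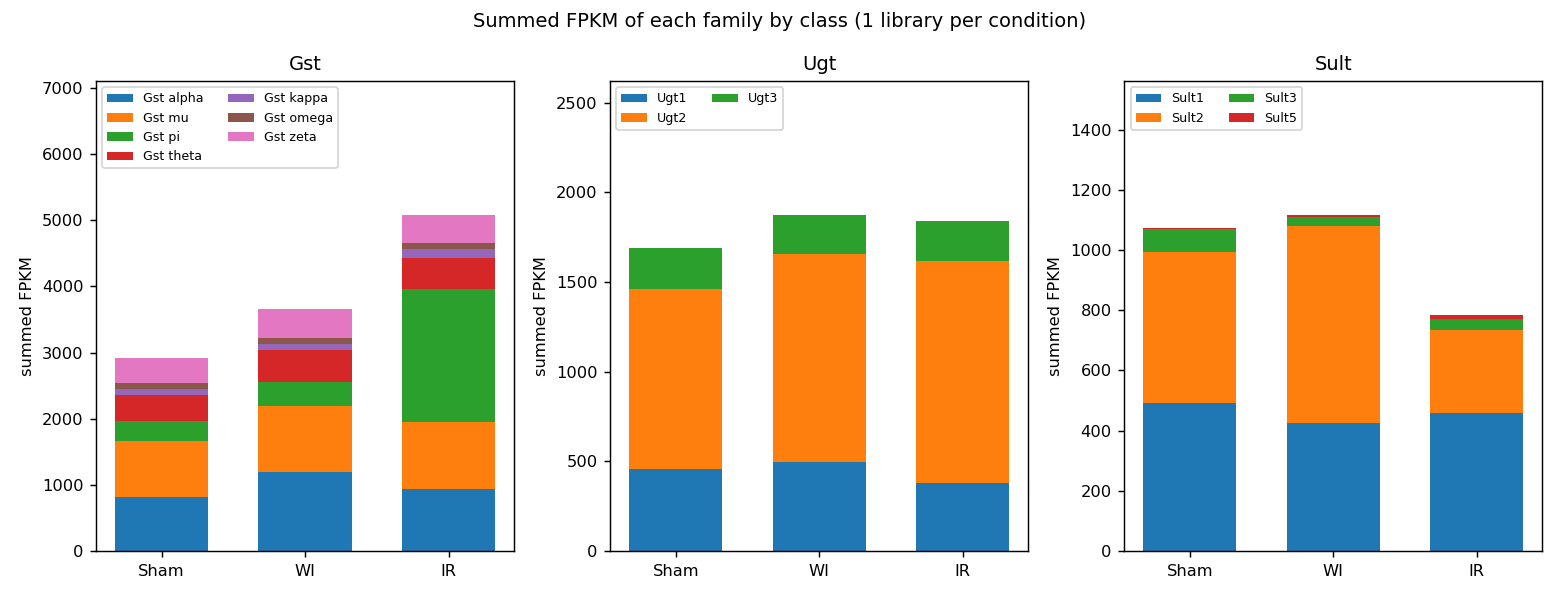
Summed FPKM of the Gst, Ugt and Sult genes (y axis, from 0) in each of the 3 libraries, stacked by class. The pi class (green) is 363 in WI and 2004 in IR while the other Gst classes together sum to 3289 and 3072, the Ugt bars are 1690, 1873 and 1841, and the Sult2 block is lowest in IR.

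No glucuronosyltransferase was called between WI and Sham. The differences of the 16 genes ran from -0.23 in Ugt1a10 to 0.50 in Ugt2b35. In IR, 2 genes of low level were higher. Ugt2b37 was at 2.07 in Sham (0.791 to 3.34), 2.04 in WI (0.771 to 3.31) and 10.3 in IR (5.30 to 15.2). Ugt2b38 was at 5.83 (2.81 to 8.86), 5.92 (2.84 to 9.0) and 19.6 (10.5 to 28.7). Both had nearly the same FPKM in Sham and WI and IR bounds apart from both. Their differences for IR against WI were 1.89 ± 0.44 and 1.58 ± 0.45. Both lie on chromosome 5 among the other Ugt2b genes, and Ugt2b38 is on the list of male-biased genes. Ugt2b5, a near copy of Ugt2b38 and 92.7% identical to Ugt2b37, has the highest level of the family. It was at 319, 360.0 and 408, a difference of 0.18 for IR against WI. Ugt2b1 was at 97.3, 109 and 188, higher by 0.79 in IR than in WI and still under 2-fold, with overlapping bounds. Ugt2b34 was highest in WI and lowest in IR, with 145, 185 and 115. The Ugt1a locus summed to 457, 496 and 378, a difference of 0.12 for WI against Sham and of -0.39 for IR against WI. The 2 Ugt3 genes, whose enzymes are known to use other sugar donors, were at 34.3, 30.7 and 44.8 (Ugt3a1) and at 192, 183 and 178 (Ugt3a2). The whole Ugt family summed to 1690, 1873 and 1841, which was 0.355%, 0.384% and 0.258% of the FPKM of all genes, so that its share was lowest in IR.

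All members called lower in any comparison were sulfotransferases. Sult2a1, the hydroxysteroid and bile acid sulfotransferase, was at 196 in Sham (96.8 to 294), 200.2 in WI (99.2 to 301) and 73.9 in IR (39.4 to 108). Sult2a2 was at 292 (145 to 439), 424 (201 to 647) and 184 (95.5 to 273). Sult2a3 was at 3.10 (1.05 to 5.15), 5.65 (2.23 to 9.07) and 0.951 (0.185 to 1.72). In all 3 genes IR had the lowest level of the samples, by -1.43 ± 0.49, -1.20 ± 0.51 and -1.77 ± 0.47 against WI, but only Sult2a3 had bounds apart. Against Sham the differences were -1.39, -0.66 and -1.07. With a pseudocount of 0.1 that of Sult2a3, whose level is low, was -2.45 against WI and -1.61 against Sham. Sult2a5 was at 8.75 (4.06 to 13.4), 20.8 (10.8 to 30.7) and 10.8 (5.16 to 16.4), high in WI only, by 1.16 ± 0.48 against Sham and with overlapping bounds. Sult2a7 had another order, with 2.17, 3.18 and 8.16, higher in IR than in WI by 1.13 ± 0.51 (0.73 with the common sum), again with overlapping bounds. All 7 Sult2a genes of the tables summed to 501, 653 and 278, a difference of 0.38 for WI against Sham and of -1.23 for IR against WI. They made up 46.7% of the summed Sult level in Sham, 58.6% in WI and 35.5% in IR. As for the pi class, the levels of these genes in IR cannot be told apart from the sex-linked pattern of that library.

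Outside Sult2a, Sult1e1, the estrogen sulfotransferase, was at 1.28 in Sham (0.381 to 2.18), 0.298 in WI (0.0230 to 0.572) and 8.08 in IR (3.84 to 12.3). Its IR level had bounds apart from both others, with differences of 2.81 ± 0.37 against WI and 1.99 ± 0.44 against Sham. Its level in WI was under the filter, so both differences from WI depend on the pseudocount. With a pseudocount of 0.1 the difference was 4.36 for IR against WI in place of 2.81, and -1.79 for WI against Sham in place of -0.81. Sult3a1 was at 75.8 (40.2 to 111), 31.2 (16.7 to 45.7) and 36.2 (19.4 to 53.0). It was the only member called lower in WI, by -1.25 ± 0.47, and was also lower in IR than in Sham (-1.04), with bounds that overlap in both. Sult1d1, known for sulfating catecholamines, was on the same side without reaching 2-fold, at 165, 90.8 and 91.0 (-0.86 for WI against Sham). Sult5a1 was at 5.15, 5.43 and 11.9, a difference for IR against WI of 1.01 ± 0.48, at the edge of 2-fold (0.55 with the common sum). The Sult family summed to 1075, 1115 and 783, or 0.226%, 0.229% and 0.110% of the FPKM of all genes. The medians of the 12 genes, 0.05, 0.05 and -0.00 in the 3 comparisons, do not show this, since 3 members were called in each direction in IR against WI.

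**Figure D4:**
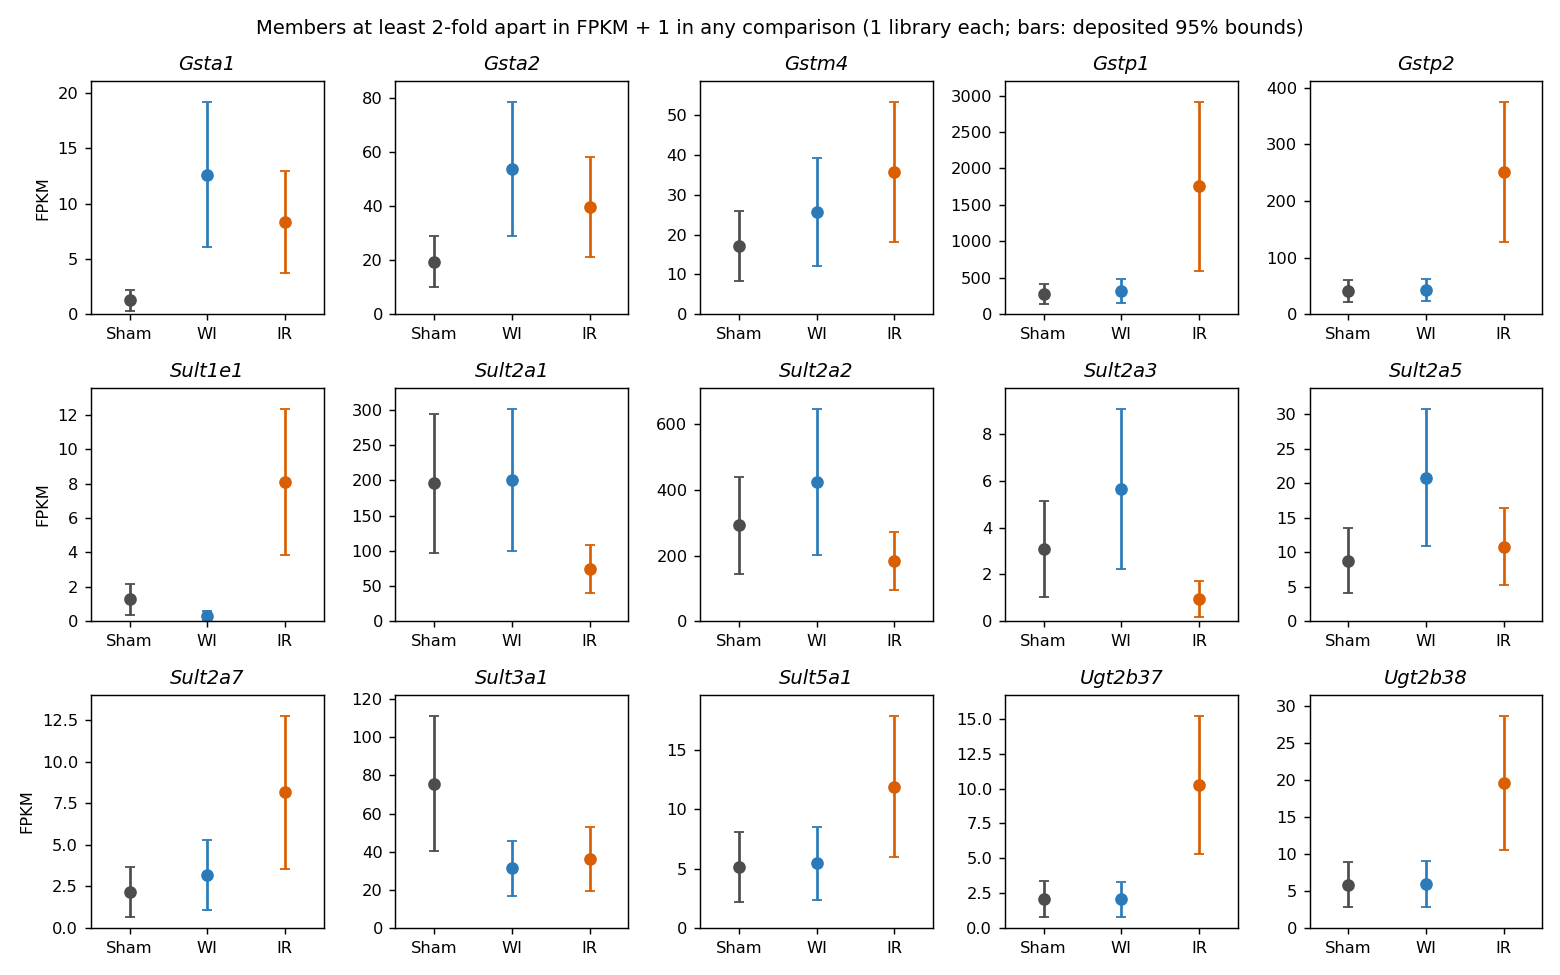
FPKM (y axis, linear, from 0) with the deposited 95% bounds as bars for the 15 genes at least 2-fold apart in FPKM + 1 in any comparison, in Sham, WI and IR (1 library each). Bars are clear of each other for Gsta1 in Sham against WI and for Gstp1, Gstp2, Ugt2b37, Ugt2b38 and Sult1e1 in IR against WI, and for Sult2a3 in WI against IR, and overlap in the other panels.

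The supply of cofactors was described by fixed lists. For glutathione, 0 of 10 genes past the filter were called between WI and Sham (0.751% of all genes were higher), and 2 were higher in IR than in WI (5.78% of all genes). Gclc, the catalytic subunit of the rate-limiting enzyme of glutathione synthesis, was at 35.7, 46.6 and 108 (1.19 for IR against WI). Chac1, which degrades glutathione, was at 6.00, 2.67 and 21.3 (2.60). Cbs, of the pathway that supplies cysteine, was at 67.3, 119.5 and 173 and passed 2-fold for IR against Sham only (1.35). The median of the list was 0.36 for WI against Sham and 0.44 for IR against WI. For UDP-glucuronic acid, neither gene was called in any comparison, with Ugdh, the dehydrogenase that makes it, at 42.7, 79.7 and 72.4. For PAPS, 0 of 4 genes were called, and Papss2, its synthase, was at 73.7, 107 and 55.2. Papss2 and the Sult2a sum had the same order of samples, highest in WI and lowest in IR.

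Other conjugation enzymes and the transporters of conjugates were also listed. Of 16 other conjugation genes past the filter, none was called between WI and Sham and 2 were higher in IR than in WI (all genes 5.78%), Nat8 (0.507, 0.360 and 5.12), which acetylates cysteine conjugates, and Nnmt (159, 103 and 345), which methylates nicotinamide. Nat8 passed the filter through IR alone. The microsomal glutathione transferase Mgst1 was at 2573, 2959 and 4110.1 (0.47 for IR against WI). Among 7 export genes, 2 were lower in IR than in WI (all genes 1.43%). Abcc2, the transporter of glutathione and glucuronide conjugates into bile, was at 87.3, 94.3 and 42.6 (-1.13), and Abcb1a was at 3.95, 6.76 and 2.36 (-1.21).

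Of 21 regulators, 1 was lower in WI than in Sham, Onecut1 (9.88, 2.64 and 5.92), against 1.1% of all genes. Higher in IR than in WI were 4, against 5.78% of all genes. Maff was at 18.6, 10.3 and 59.9 and Mafk at 5.73, 5.05 and 19.1, both small Maf partners of NRF2. The liver factors Foxa3 and Cebpb were also higher. Foxa3 was at 13.7, 17.1 and 38.7 and Cebpb at 158, 113 and 334. Ppara, the fatty acid receptor, was lower (41.2, 43.2 and 17.2). The genes of the receptors named above were all within 2-fold. Nfe2l2 was at 14.2, 20.4 and 23.1, and Ahr at 9.17, 8.17 and 6.88. The PXR gene Nr1i2 was at 32.9, 25.6 and 25.1, and the CAR gene Nr1i3 at 50.8, 52.9 and 36.6. The hepatocyte factor Hnf4a, known to keep many of these enzymes expressed, was at 144, 122 and 136.

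Known targets of these factors were described by their own lists. Of 12 genes inducible by NRF2, 0 were called between WI and Sham, and 4 were higher in IR than in WI, Hmox1 (22.6, 18.1 and 279.8), Srxn1 (10.6, 13.0 and 79.5), Txnrd1 (27.0, 32.8 and 67.7) and Gclc, against 5.78% of all genes. The median of the 12 was 0.31 for WI against Sham, 0.47 for IR against WI and 0.70 for IR against Sham, above the 0.02, 0.03 and 0.05 of all genes. Nqo1, a defining NRF2 target, was at 5.84, 8.72 and 8.22. Of 7 genes inducible by CAR and PXR, 1 was lower in WI than in Sham, Cyp2b10 (18.6, 4.67 and 4.16), against 1.1% of all genes. Lower in IR than in WI was 1, Cyp2c37 (339, 448 and 216), against 1.43% of all genes. The list medians were -0.18 and -0.02, against 0.02 and 0.03 over all genes. Of 3 AHR-inducible genes past the filter, 1 was higher in IR than in WI, Tiparp (4.10, 2.58 and 22.4), against 5.78% of all genes. Cyp1a2, with the highest level of this list, was at 291, 389 and 248, on the lower side in IR against WI (-0.65). The median of the 3 was 0.42 for WI against Sham and -0.08 for IR against WI. Cyp1a1, under the filter, was at 0.510, 0.417 and 0.412. The lists were chosen from textbook knowledge, with earlier results of these data known. Gclc, Gclm, Gsr and Slc7a11 stand on both the glutathione and the NRF2 list, so these lists are not independent. Nqo1, Ahrr and Cyp1a2 also stand on more than 1 list.

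**Figure D5:**
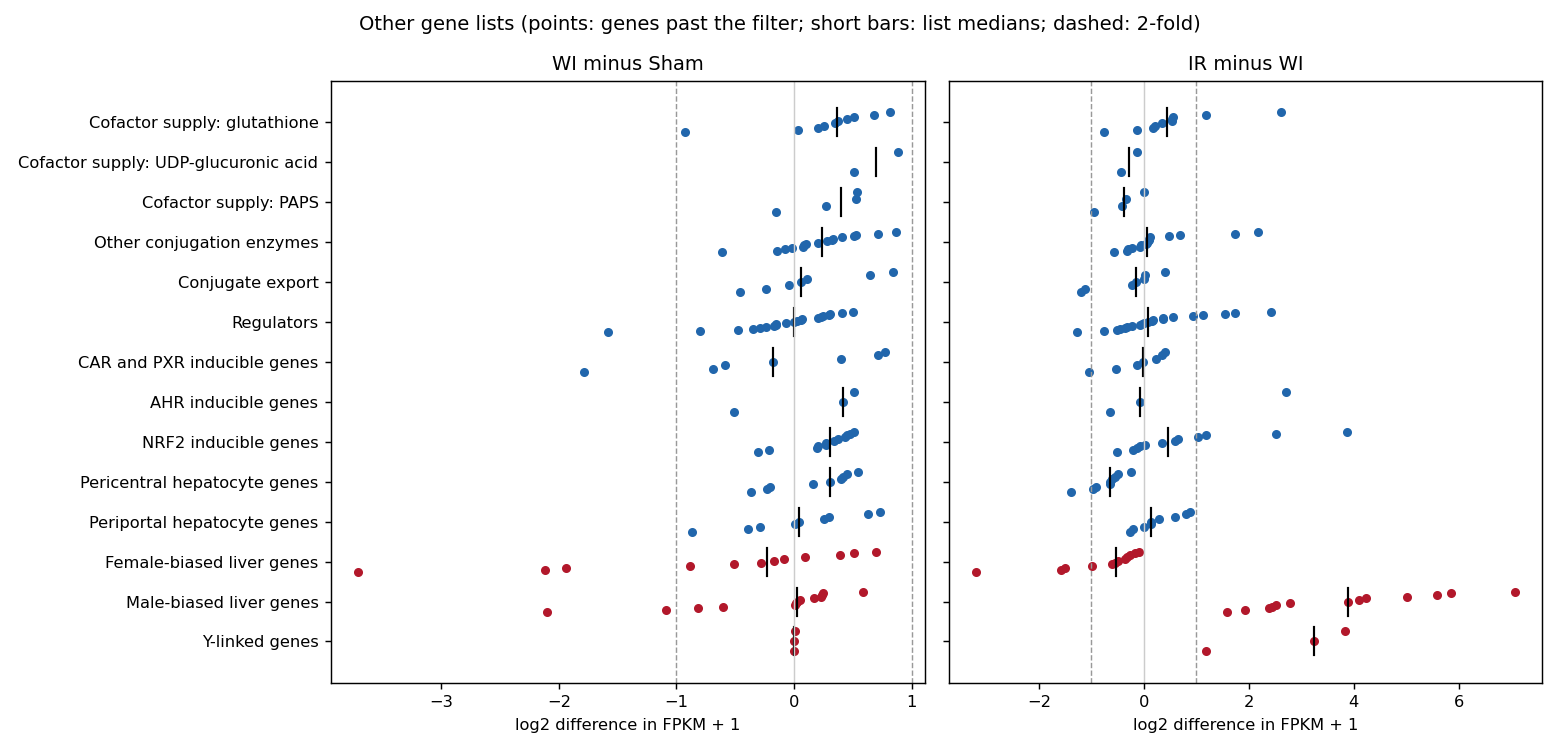
Difference of each gene past the filter in the lists of cofactor supply, conjugation, export, regulators, inducible genes, zonation and sex-linked genes (y axis), as log2 of FPKM + 1 (x axis), for WI minus Sham (left) and IR minus WI (right); points are genes, short bars list medians and dashed lines 2-fold. The male-biased genes lie beyond 2-fold in IR minus WI, 3 of them past the filter through IR alone, while the cofactor lists lie within 1 on either side except for Gclc and Chac1.

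Markers of cell types and liver zones differed between the libraries as well. The hepatocyte markers Apoa1, Apob, Ttr and Fgb summed to 14430, 11804 and 20075. Of these 4, 2 were higher in IR than in WI, Apoa1 and Fgb (5.78% of all genes), while Apob was lowest in IR, at 379, 378 and 221. Alb was listed at 0 in every sample under the status HIDATA, which marks a locus with too many fragments to process. Neutrophil markers summed to 23.8, 18.1 and 424, and all 4 past the filter were higher in IR than in WI (5.78% of all genes were). Of these, Cxcr2 (0.127, 0.163 and 3.65) passed the filter through IR alone, so its direction was set by the filter. Mpo, under the filter, was at 0.0598, 0.0131 and 0. Erythroid markers summed to 751, 518 and 1976 (5 of 5 higher in IR than in WI, against 5.78% of all genes). Kupffer cell markers summed to 447, 226 and 153. Of 6, 2 were lower in WI than in Sham (1.1% of all genes), 1 in IR than in WI (1.43%) and 4 in IR than in Sham (2.15%). The markers did not all move alike. Clec4f, Emr1, Cd5l and Vsig4 were on the lower side in IR against WI. Marco (20.9, 12.6 and 25.3) and Cd68 (18.5, 12.3 and 18.5) were on the higher side, within 2-fold. Endothelial markers summed to 124, 88.2 and 109, and Lyve1 among them, at 11.2, 2.73 and 33.4, was lower in WI and higher in IR with bounds apart in every comparison, while Kdr was at 10.9, 9.45 and 4.80. Stellate cell markers summed to 148, 107 and 111, with Lrat at 4.96, 4.12 and 1.46. Lymphocyte markers were low throughout and summed to 5.27, 4.14 and 1.76. Cholangiocyte markers summed to 54.2, 62.0 and 93.6, with Spp1 at 51.8, 58.7 and 86.7 making up most of the sum, and Krt19 at 0.482, 1.22 and 1.73. Of 9 pericentral hepatocyte genes, none was called between WI and Sham and 1 was lower in IR than in WI, Slc1a2 (1.43% of all genes). The list median for IR against WI was -0.64, and Glul was at 402, 350.1 and 247. Of 9 periportal genes none was called in either comparison, with a median of 0.13 for IR against WI. Cyp2f2, at 359.6, 442 and 771, was higher in IR than in Sham only (5.35% of all genes). The part of cell composition and zonation in the differences above was not tested.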

How the data were processed

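Liver mRNA of 3 mouse libraries (Sham, WI, IR; 1 each, grouped by title) was analysed. Per the submitters' processing notes and the methods, the authors mapped read pairs to mm10 with TopHat2 2.0.9 and computed gene FPKM with Cuffdiff of Cufflinks 2.0.2. The deposited FPKM tables hold a level, 95% bounds and a status per gene, and no counts, so the depth behind each gene's value is not in them and no count test or counting interval was made. The annotation used is not given in the sources used here. Locus starts were found to be counted from 0, so 1 was added, after which 10562 of 21526 genes found by symbol in RefSeq GRCm38.p6 have its start.

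Members were chosen by symbol. The members and lists were chosen with earlier results of these data known, and the AP-1 motif, the neighbours of Gsta1 and 3 alternatives (leaving out male-biased members, and differences relative to the all-gene median) after seeing the data. Named were members past 2-fold or with bounds apart, the 3 highest per family in Sham, those next to the filter, near copies, and list genes past 2-fold or defining a list. FPKM + 1 was compared on the log2 scale over genes whose highest FPKM reached 1, and a 2-fold difference was called. Standard errors were derived from the bounds, whose median coefficient of variation was 26.0% in each library.

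Coding sequences came from GENCODE vM1 on NCBIM37, an older build, joined by symbol only (57 of 59 members), and promoters from RefSeq GRCm38.p6. Alternatives were other pseudocounts, filters, folds and scalings, the bounds, and summed neighbours. Scripts (Python 3.11.15, numpy 2.4.6, pandas 2.3.3, Biopython 1.88, matplotlib 3.10.9) were tested on simulated data.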

Additional observations from a re-analysis of the deposited data

How the results depend on the processing

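A count was taken as kept within 1.5 times. A family median was kept where it moved by less than the median standard error of its members, derived from the bounds, a wide limit for Ugt. By these limits 144 of 174 recomputed counts and medians were kept. None of the 26 called differences of members changed sign, while 7 recomputed values of uncalled differences did: Gstm4 and Sult3a1 for IR against WI (-0.07 and -0.33) and Sult2a5 for IR against Sham (-0.26) under TPM, and Sult2a1 and Ugt2b38 for WI against Sham, both near 0, under TPM and median-ratio scaling. Between WI and Sham, the 3 higher members became 5 at 1.5-fold, and 1 at 4-fold, with bounds apart or with near copies summed. The 1 lower member became 2 with a pseudocount of 0.1 or 0.01 (Sult1e1 added), 2 after scaling to a common sum (TPM), also relative to the median of all genes, 3 at 1.5-fold, and 0 at 4-fold or with bounds apart. Between IR and WI, the 7 higher members became 3 at 4-fold and 4 without Gstp1, Gstp2 and Ugt2b38, and the 3 lower became 10 under TPM, 7 at 1.5-fold, 0 at 4-fold, 1 with bounds apart and 1 with near copies summed. Between IR and Sham, the 9 higher became 14 at 1.5-fold and 3 at 4-fold, and the 3 lower became 7 under TPM or at 1.5-fold, 0 at 4-fold or with bounds apart, and 1 with near copies summed. TPM shifted the median of all genes by -0.48 for IR against WI and by -0.51 for IR against Sham. With it the medians for IR against WI were -0.54 for Gst, -0.55 for Ugt and -0.49 for Sult, and for IR against Sham -0.27 for Gst, -0.33 for Ugt and -0.54 for Sult. Under TPM, 4 called differences of members came under 2-fold, those of Gstm4 and Sult5a1 against Sham and of Sult2a7 and Sult5a1 against WI, and under median-ratio scaling 3, without Sult2a7. No paired analysis was possible because each condition has 1 library, and for the same reason no library could be left out. Depth limits the low genes, Sult1e1 and Gsta1 in Sham among them, and the tables hold no counts to measure that limit.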
